A study of Bos indicus x Bos taurus with 78 samples.

Results

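The miR-379/miR-410 group is a run of microRNAs (miRNAs) within the imprinted DLK1-DIO3 locus. Its members were taken from the count table by name, through a fixed list of miRNA numbers known to belong to this run, with any letter or arm suffix. The rule found 48 of the 1030 miRNA rows. The rule used names alone and no measured level. The loin muscle Longissimus lumborum was biopsied in 78 steers, which are castrated males, of crossed Bos indicus x Bos taurus background, and small RNA was sequenced from the total RNA of each biopsy. The labels gave a normal phenotype to 53 steers and dark-cutting to 25, with a degree of 1/4 in 8 steers, 1/3 in 9, 1/2 in 3, 2/3 in 4 and 3/4 in 1. No treatment and no age is given by the labels for any group. Dark-cutting meat is abnormally dark, a fault tied to muscle glycogen that had run low before slaughter, and the study asked which miRNAs went with it.

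At the DLK1-DIO3 locus the protein-coding genes DLK1, RTL1 and DIO3 are expressed from the paternal chromosome, and the noncoding RNAs, the miRNAs among them, from the maternal one. The miR-379/miR-410 miRNAs are thought to be cut from long maternal transcripts, and a smaller group around miR-127, miR-136 and miR-493 lies in the same locus. The locus is known in livestock for the callipyge sheep, whose hindquarter muscles are enlarged. In mice, loss of the miR-379/miR-410 group disturbs glucose supply in newborns, and MEF2 transcription factors drive the locus in muscle.

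Library totals ran from 1427817 to 4535675 counts, with a median of 3209320. Levels are given as CPM, the counts of a miRNA per 1000000 counts of its library after TMM scaling, a correction for differences in library composition, and mature miRNAs are of similar length, so no length correction was made. How well each sequence was captured by the library chemistry was not tested. As a check of the tissue label, all 7 listed muscle miRNAs had counts in all 78 steers, with miR-1 at 860253 CPM on average. The listed markers of blood, smooth muscle, endothelium and fibroblasts also had counts in all 78. The liver miRNA miR-122 had a count in 11 steers. Of the nerve list, miR-124a and miR-124b had counts in 5 steers, but miR-9-5p (6.29 CPM) and miR-128 (332 CPM) in all 78. Each biopsy is a mix of cells, so a lower level from fewer cells of a type and one from less RNA per cell cannot be told apart.

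Of the 48 members, 45 were detected by at least 1 count and 18 of these in every steer. Together they held 189636 of the 252310792 counts, and their sum made up 0.0750% ± 0.0223 (SD, n = 78) of a library. The remaining 3, miR-329b, miR-409b and miR-544b, had no count in any library. Taking 3 counts as the limit that a count of 0 allows, their level over all libraries was at most 0.0119 CPM, counting error only. The low-count filter passed 21 members for dark-cutting against normal steers, and for the degrees also miR-154b and miR-376b. The 22 members with counts that passed neither filter had mean levels between 0.00678 and 1.21 CPM. Among those, miR-134, known from work on dendritic spines of neurons, was highest and had a count in 72 steers. No member had counts identical to those of another row.

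A few members held most of the counts. The 3 highest, miR-411a, miR-379 and miR-381, held 64.85% of all member counts, and the 8 highest held 86.35%. In the 53 normal steers miR-411a ran from 165 to 446 CPM with a median of 257, and in the 25 dark-cutting steers from 143.2 to 416 CPM with a median of 241. miR-379 ran from 76.9 to 313 CPM (median 131) in normal and from 59.9 to 213.7 CPM (median 120.1) in dark-cutting steers. For both miRNAs the ranges overlapped almost entirely, with the dark-cutting median below the normal one. miR-381 ran from 38.8 to 212 CPM (median 76.98) in normal and from 44.97 to 153 CPM (median 72.5) in dark-cutting steers. miR-369-3p, known for binding AU-rich elements of mRNAs, ran from 24.2 to 108 CPM (median 60.04) and from 33.5 to 103 CPM (median 57.0).

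The next 4 members stood lower. miR-487b ran from 14.7 to 50.8 CPM (median 29.9) in normal and from 20.99 to 47.8 CPM (median 33.9) in dark-cutting steers. miR-376e had medians of 25.8 and 24.7 CPM, with 13.4 to 44.5 CPM in normal and 10.6 to 47.6 CPM in dark-cutting steers. For miR-376e, too, the ranges overlapped nearly in full. miR-494, known to act on mitochondrial biogenesis factors in muscle cells, had medians of 18.8 and 21.4 CPM, with 9.97 to 34.8 CPM in normal and 11.4 to 29.4 CPM in dark-cutting steers. miR-380-3p had medians of 15.6 and 17.5 CPM, with 5.94 to 24.8 CPM in normal and 6.503 to 24.3 CPM in dark-cutting steers. The other 13 tested members had means from 13.4 CPM for miR-495 down to 2.14 CPM for miR-299.

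**Figure D1:**
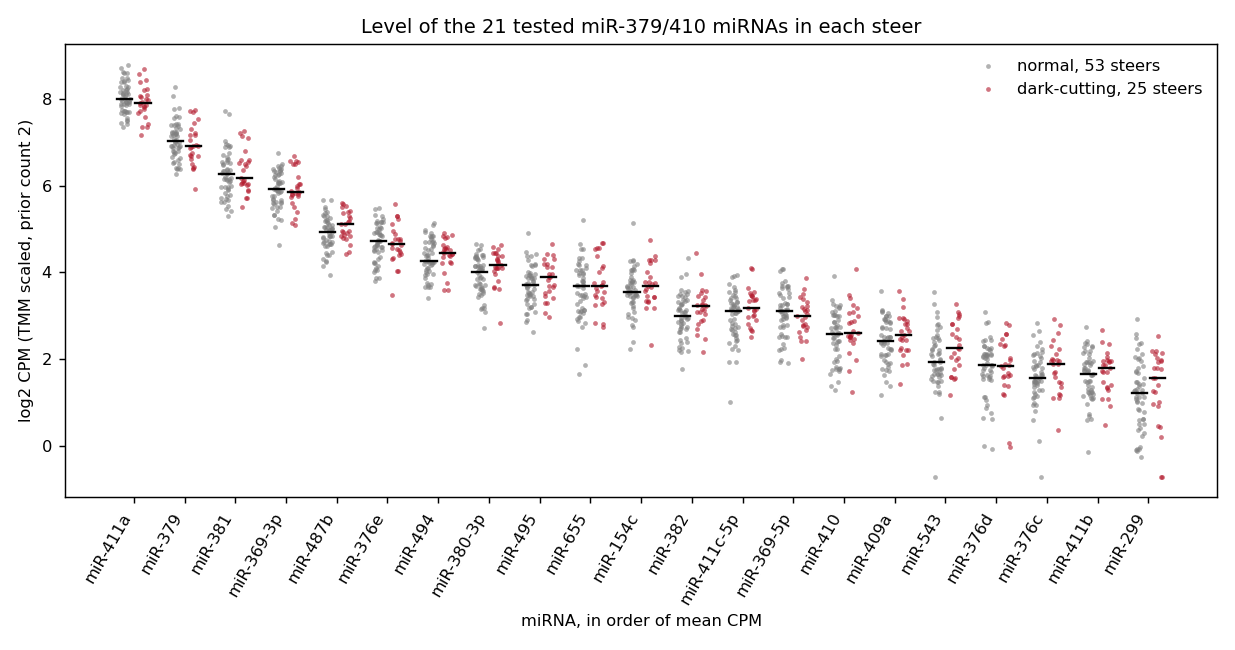
Level of each of the 21 tested members in every steer, as log2 CPM on the vertical axis, with the miRNAs ordered by mean CPM along the horizontal axis. Points are steers, grey for the 53 normal and red for the 25 dark-cutting, and bars are medians; the 2 groups overlap for every member, and the levels fall from miR-411a to miR-299.

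The order of the most abundant members was alike from steer to steer. miR-411a had more counts than miR-379 in 78 of 78 steers, miR-379 more than miR-381 in 70, miR-381 more than miR-369-3p in 61 and miR-369-3p more than miR-487b in 76. miR-487b lay above miR-376e in 55 steers. Lower down, some neighbours did not differ beyond their spread. miR-655 (13.1 CPM ± 6.004, SD, n = 78), known to repress ZEB1, lay above miR-154c (12.4 CPM) in 38 of 78 steers. miR-382, miR-411c-5p and miR-369-5p had means of 8.24, 8.23 and 8.16 CPM, and each lay above the next in 38 and 37 of 78 steers.

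Spread between steers was larger than counting error for the abundant members. Biological coefficients of variation, the part of the spread left after counting error, had a median of 31.2% over the 21 tested members, between 24.4% for miR-487b and 53.3% for miR-299. The 231 tested miRNAs outside the group had a median of 25.9%. miR-411a had 24.8%, where counting error alone gives 3.41% at its mean count. miR-379 had 30.2% and miR-381 35.1%, against medians of 20.7% and 22.2% for non-members within 0.5 log2 units of their abundance. miR-655 had 41.5%, against 29.7% for non-members of similar abundance. In all, 16 of the 21 members lay above the median of non-members of similar abundance, a description without a test. For the least abundant member, miR-299, counting error alone gives 37.6%.

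Between dark-cutting and normal steers no member passed edgeR's quasi-likelihood test with Benjamini-Hochberg adjustment at 0.05 (0 of 21, against 0% of the 252 miRNAs tested). The member with the smallest p was miR-543, which ran from 0 to 11.1 CPM in normal steers (median 3.18) and from 1.63 to 8.99 CPM in dark-cutting steers (median 4.17). Its groups overlapped over most of their range, and 18 of the 25 dark-cutting values exceeded the normal median. Its log2 fold change was 0.34 ± 0.16 (SE), with p = 0.0407 and an adjusted p of 0.416 by edgeR. It was the only member with an unadjusted p under 0.05 (1 of 21), where 9.13% of all tested miRNAs had one. DESeq2 put 2 of 21 members (9.52%) under an unadjusted 0.05, against 9.13% of all miRNAs, and limma-voom 4 (19%), against 11.9%. With total count scaling in edgeR there were 5 (23.8%), against 14.7% of all. None of these fits called a member after adjustment. In the authors' deposited table, which a DESeq2 refit matched to this contrast, 41 of 542 rows were members. There, 2 had a p-value under 0.05, miR-543 with a log2 fold change of 0.35 and miR-380-3p with 0.21, both at an adjusted p of 0.605, where 7.75% of all rows had one.

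Most members had small fold changes above 0. The log2 fold change was above 0 for 17 of 21 members with a median of 0.15, while over all 252 miRNAs 46% were above 0 and the median was -0.01. The 21 members are correlated between steers (given further on), so these signs are not 21 separate observations. The 4 values below 0 were those of miR-369-5p at -0.14 ± 0.13 (SE), miR-411a at -0.11 ± 0.09, miR-379 at -0.10 ± 0.11 and miR-376e at -0.03 ± 0.11. After miR-543, the smallest p-values were those of miR-380-3p at 0.20 ± 0.10 (p = 0.0509) and miR-487b at 0.17 ± 0.09 (p = 0.0571), both with an adjusted p of 0.416 by edgeR. The 95% intervals left out a 2-fold change in either direction for all 21 members, and a 1.5-fold change for 18, the exceptions being miR-299, miR-376c and miR-543. Over all 252 miRNAs the intervals did so for 249 and 227. Of the miR-127, miR-136 and miR-493 group of the locus, 5 miRNAs were tested, none passed after adjustment, 3 were above 0 and the median was 0.06. By edgeR 2 of these 5 had an unadjusted p under 0.05, 1 higher and 1 lower, against 9.13% of all 252.

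**Figure D2:**
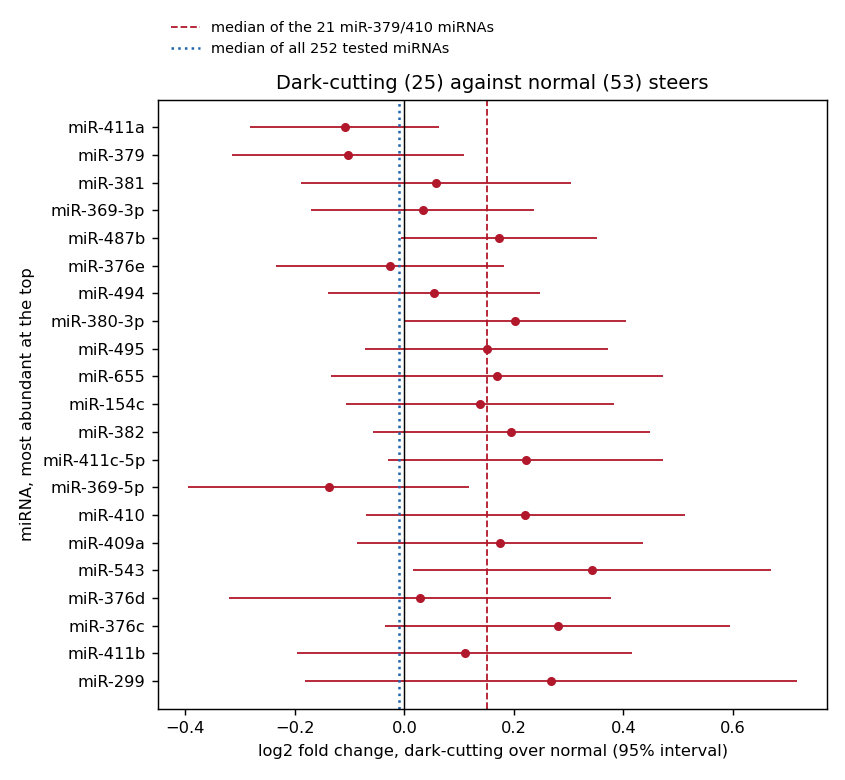
Log2 fold change of each of the 21 tested members, dark-cutting over normal steers, with bars for the 95% interval worked out from edgeR's F statistic. Members are ordered by abundance from the top. The dashed line is the members' median of 0.15 and the dotted line that of all 252 miRNAs at -0.01; of the intervals, that of miR-543 alone leaves out 0.

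The summed share of the members in a library, which is not TMM scaled, also overlapped between the groups. It ran from 0.0428% to 0.165% (median 0.0689%) in normal and from 0.0441% to 0.116% (median 0.0806%) in dark-cutting steers. The means were 0.0735% ± 0.0233 (SD, n = 53) and 0.0782% ± 0.0202 (SD, n = 25). The difference was not tested, and these SDs describe single steers, not the means. As a share of the counts other than those of miR-1 the means were 0.468% ± 0.118 (SD, n = 53) and 0.484% ± 0.117 (SD, n = 25). The first share is relative to total counts, a scale on which the median log2 fold change of all 252 tested miRNAs was 0.10. The second share leaves miR-1 out of the total, and no such median was worked out on its scale. The mean log2 CPM of the 21 members was 3.72 ± 0.30 (SD, n = 53) and 3.83 ± 0.31 (SD, n = 25).

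The title numbers of the steers fall into a range below 600 (18 normal, 8 dark-cutting) and one at or above 600 (35 and 17), whose meaning the labels do not give. Within the lower range 20 of 21 members had log2 fold changes above 0, with a median of 0.24, and within the upper range 14 of 21, with a median of 0.12. Over all tested miRNAs 56.3% were above 0 in the lower range (median 0.02) and 49.2% in the upper (median -0.0021). miR-543 was at 0.73 ± 0.22 (SE; p = 0.00246, adjusted p = 0.453 by edgeR) in the lower range and at 0.17 ± 0.22 (p = 0.453, adjusted p = 0.840) in the upper. The test of this difference, an interaction term in edgeR, gave p = 0.130 for miR-543 and an adjusted p of 0.852. No member had an interaction p under 0.05, against 3.97% of all 252, and the smallest was that of miR-369-5p at p = 0.0791. With phenotype in the model, the ranges themselves differed at an unadjusted p under 0.05 for 3 of 21 members, against 11.9% of all 252. These were higher in the upper range: miR-369-5p by 0.34 ± 0.12 (SE; p = 0.00845), miR-379 by 0.27 ± 0.10 (p = 0.0109) and miR-411a by 0.18 ± 0.08 (p = 0.0336). None passed after adjustment, against 0.794% of all 252, and their adjusted p-values by edgeR were 0.197, 0.197 and 0.380.

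Among the degrees, 23 members were tested of 272 miRNAs, each degree against the same 53 normal steers in a single edgeR fit. No member passed after adjustment at any degree, against 0% of the 272 at 1/4, 1/3 and 1/2 and 0.368% at 2/3. The median log2 fold change of the members was 0.02 at 1/4, 0.19 at 1/3, 0.32 at 1/2 and 0.01 at 2/3. Over all 272 miRNAs these medians lay between -0.07 and -0.0019. The degrees share their normal steers, so their values are not independent of each other.

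At degree 1/4 no member had an unadjusted p under 0.05 by edgeR or DESeq2, against 1.1% and 2.21% of all miRNAs. The smallest was that of miR-543, at 0.43 ± 0.26 (SE; p = 0.101, adjusted p = 0.998 by edgeR). Of the members, 14 of 23 were above 0, against 48.2% of all miRNAs. At degree 1/3 the member with the smallest p was miR-410, known from muscle regeneration work as a MEF2-dependent miRNA. It ran from 3.36 to 16.2 CPM (median 6.73) in the 9 steers and from 1.84 to 14.4 CPM (median 5.39) in normal steers, so the groups overlapped. Its log2 fold change was 0.46 ± 0.21 (SE; p = 0.0320, adjusted p = 0.435 by edgeR). It was 1 of 23 members under an unadjusted 0.05, against 9.19% of all miRNAs, and 16 of 23 were above 0, against 46.7% of all. With total count scaling 6 of 23 were under 0.05, against 8.82% of all, and 19 were above 0, against 73.5%. The medians then moved to 0.33 for the members and 0.13 for all miRNAs.

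The 3 steers of degree 1/2 were on the high side for several members. Their miR-655 levels were 25.2, 16.7 and 22.7 CPM, above those of 52, 43 and 50 of the 53 normal steers. miR-382 was at 11.6, 10.2 and 15.1 CPM, above 50, 42 and 51 normal steers, and miR-543 at 5.12, 6.45 and 7.40 CPM, above 44, 49 and 50. Each of these values lay above at least 42 of the 53 normal steers, and none above all of them. miR-381 was at 138, 70.1 and 153 CPM, above 51, 21 and 51 normal steers. miR-380-3p was at 23.5, 18.8 and 19.1 CPM, above 51, 38 and 39. Steer 2 of the degree stood apart from its other steers for miR-381, where it lay below most normal steers.

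In the fit, these 5 members were those with an unadjusted p under 0.05 at degree 1/2, against 4.78% of all 272 miRNAs. The log2 fold changes were 0.81 ± 0.33 (SE; p = 0.0172) for miR-655, 0.67 ± 0.29 (p = 0.0216) for miR-382 and 0.80 ± 0.37 (p = 0.0326) for miR-543. Those of miR-381 and miR-380-3p were 0.59 ± 0.28 (p = 0.0413) and 0.47 ± 0.24 (p = 0.0490). The adjusted p was 0.942 by edgeR for all 5. DESeq2 put 3 of 23 members under an unadjusted 0.05, against 4.78% of all miRNAs. Of the 23 members, 18 were above 0, against 49.6% of all miRNAs. Leaving out steer 1, 2 or 3 left 2, 3 and 0 members under an unadjusted 0.05, against 2.94%, 2.95% and 3.68% of all miRNAs.

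At degree 2/3 the 4 steers were far apart from each other. Their mean log2 CPM over 21 members was 3.80, 3.44, 3.29 and 4.42, which ranked 38, 62, 76 and 2 from the highest among all 78 steers. The 3 steers of degree 1/2, at 4.17, 3.93 and 4.13, ranked 8, 20 and 10, and the steer of degree 3/4, at 3.85, ranked 31. Steer 4 of degree 2/3 was thus near the top of all steers and steer 3 near the bottom. Levels of miR-411a in these 4 steers were 234, 206.4, 164 and 383 CPM, and the third lay below all 53 normal steers. Of 23 members 12 were above 0 at this degree, but 19 without steer 3 and 2 without steer 4, with medians of 0.19 and -0.31. Over all tested miRNAs 33.1% were above 0, and 51.9% and 36.4% without steer 3 and steer 4.

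The member with the smallest p at degree 2/3 was miR-154b, at 4.35, 1.54, 2.71 and 4.31 CPM, from 17, 4, 8 and 13 counts. Normal steers ran from 0 to 4.09 CPM with a median of 1.54, so that 2 of the 4 steers lay above every normal steer and 1 lay near the normal median. Its log2 fold change was 0.92 ± 0.43 (SE; p = 0.0333, adjusted p = 0.988 by edgeR). It was 1 of 23 members under an unadjusted 0.05, against 2.57% of all miRNAs. Leaving out single steers gave 0 to 3 such members, with 0 without steer 1, against 2.21% of all miRNAs, and 3 without steer 4, against 5.15%.

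**Figure D3:**
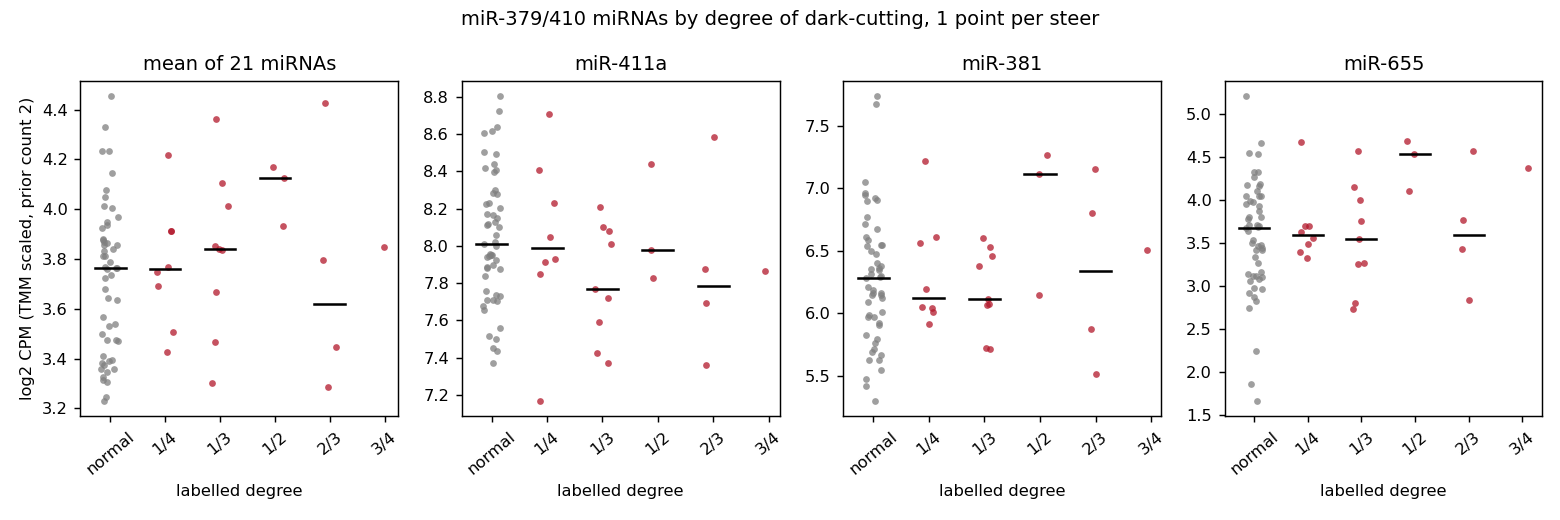
Mean log2 CPM of the 21 members and log2 CPM of miR-411a, miR-381 and miR-655 on the vertical axes, by labelled degree on the horizontal axes. Each point is a steer and bars are medians (none for the single steer of degree 3/4); the 3 steers of degree 1/2 have means of 3.93 to 4.17, and the 4 steers of degree 2/3 spread from 3.29 to 4.42.

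The slope on the labelled degree, with normal steers at 0, had a median of 0.36 log2 units per whole unit of degree over the 23 members, with 17 above 0. Over all 272 miRNAs the median slope was -0.04, with 44.5% above 0. No member passed after adjustment, against 0.368% of all miRNAs, and none had an unadjusted p under 0.05 by edgeR, against 11% of all, while DESeq2 put 1 there, also against 11% of all. The smallest p was that of miR-487b, with a slope of 0.40 ± 0.21 (SE; p = 0.0555, adjusted p = 0.436 by edgeR). With libraries scaled by total count alone, 7 of 23 members (30.4%) had an unadjusted p under 0.05, against 14.7% of all 272 miRNAs. That scaling moved the median slope of the members to 0.62 and that of all miRNAs to 0.19.

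When only the 25 dark-cutting steers entered the fit, the median slope was -0.05 over 21 tested members, 9 of them above 0, and -0.10 over all 251 miRNAs. Of all 251, 39% were above 0. The sign of the members' median did not hold. It was 0.02 with DESeq2, 0.10 with total count scaling and 0.18 without the single steer of degree 3/4, with 12, 13 and 15 members above 0. Over all tested miRNAs the medians were then -0.02, 0.08 and -0.05, with 47.4%, 57.4% and 47.8% above 0. One member, miR-376d, had an unadjusted p under 0.05, against 3.59% of all, and none passed after adjustment. Its medians were 3.69 CPM at degree 1/4 and 3.36 CPM at 1/3, and its levels were 2.46, 2.42 and 3.06 CPM at 1/2, 2.05, 3.46, 3.05 and 1.99 CPM at 2/3 and 0.435 CPM, from 2 counts, at 3/4. Its slope was -2.31 ± 0.94 (SE; p = 0.0190, adjusted p = 0.998 by edgeR), and -1.48 without the steer of degree 3/4, when no member was left under an unadjusted 0.05.

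Members varied together from steer to steer in both phenotypes. Over the 210 pairs of tested members the Spearman correlation of log2 CPM across 78 steers had a median of 0.334, and 209 pairs were above 0. Over all 31626 pairs of tested miRNAs the median was -0.000493 and 49.9% of pairs were above 0. The points share the library and its scaling, and the values are given without a test. Members paired with the 5 tested miRNAs of the miR-127, miR-136 and miR-493 group had a median of 0.290 over 105 pairs. Members paired with the other 226 miRNAs had a median of -0.03. The median over member pairs was 0.324 within normal and 0.375 within dark-cutting steers, and 0.346 and 0.327 within the lower and upper title number ranges. With total count scaling it rose to 0.513, and that of all pairs to 0.260.

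The closest pair was miR-379 with miR-411a, which are also the 2 most abundant members, at a Spearman correlation of 0.853. Its Pearson correlation was 0.870, and 0.852 without the 2 steers farthest from the median. The log2 ratio of their counts had an SD of 0.22 over the 78 steers, while their log2 CPM had SDs of 0.44 and 0.36. miR-381 and miR-655 followed at a Spearman correlation of 0.819 (Pearson 0.834, and 0.815 without 2 steers), then miR-487b with miR-655 at 0.665 and miR-369-3p with miR-495 at 0.662. The lowest pair, miR-369-5p with miR-411b, stood at -0.08. Correlations were higher among abundant members. Counting error is smaller for these, but whether it accounts for the difference was not tested. The 28 pairs of the 8 most abundant members had a median of 0.488, and those of the 8 least abundant 0.215.

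**Figure D4:**
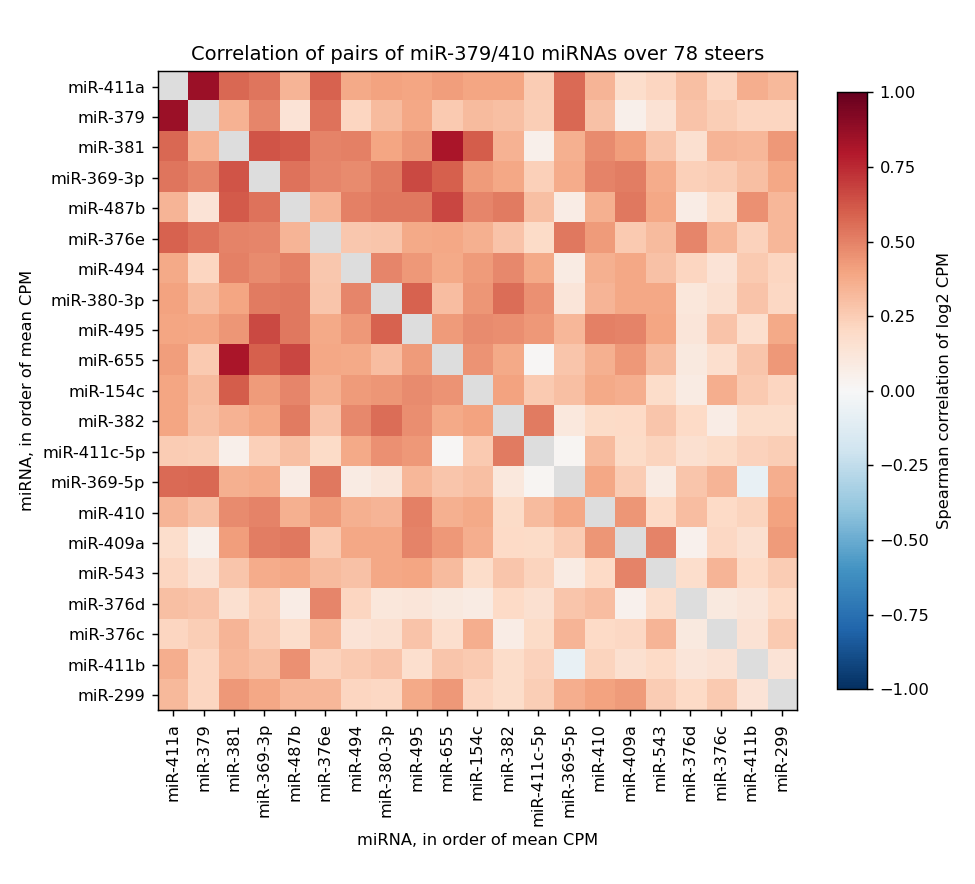
Spearman correlation of log2 CPM over 78 steers for each pair of the 21 tested members, with miRNAs in order of mean CPM on both axes and colour from -1 (blue) to 1 (red); the diagonal is grey. Nearly all pairs are above 0, with miR-379 and miR-411a at 0.853 and miR-381 and miR-655 at 0.819 the darkest.

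On the TMM scale, the 3 miRNAs outside the group that were most like it belong to the same locus. By Spearman correlation with the mean log2 CPM of the 21 members, miR-127 ranked first of all 252 miRNAs at 0.737 (Pearson 0.739, and 0.717 without 2 steers). Among non-members it was followed by miR-432 at 0.581, miR-493 at 0.459, miR-424-5p at 0.317 and miR-503-5p at 0.288. miR-432 and miR-493 belong with miR-127 to the other group of the locus, and miR-424 and miR-503 are neighbours of each other on the X chromosome. Of the 21 members, each set against the mean of the others, 20 lay above the highest of the 226 miRNAs from outside the locus lists, at 0.317, and miR-376d, at 0.313, lay just below it. Those 226 had a median of -0.04. miR-136 and miR-370, also of the locus, stood at 0.272 and 0.244. With total count scaling this separation did not hold. There miR-127 stood at 0.853, but miR-424-5p, at 0.670, lay above miR-432 at 0.658 and miR-493 at 0.609. On that scale miR-424-5p also lay above several members, such as miR-379 at 0.603 and miR-376d at 0.525.

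**Figure D5:**
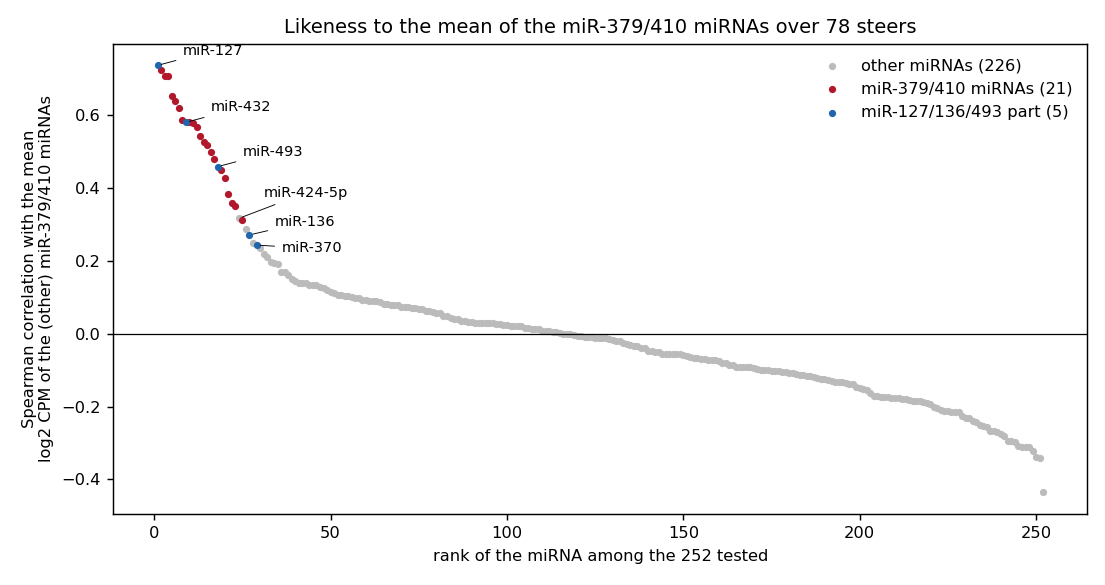
Spearman correlation over 78 steers of each of the 252 tested miRNAs with the mean log2 CPM of the members (of the other members, for a member) on the vertical axis, against its rank on the horizontal axis. Members are red, the 5 tested miRNAs of the miR-127, miR-136 and miR-493 group blue and the others grey. On this TMM scale 20 members lie above every grey point, and miR-127 ranks first at 0.737.

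The TMM scaled mean of the members moved little with measures of the library or of other cell types. Across 78 steers its Spearman correlation was 0.07 with the library total, -0.02 with the share of miR-1 and 0.17 with the title number. With the summed level of marker miRNAs it lay between -0.27 for the nerve list and 0.11 for the red blood cell list. The nerve list is nearly all miR-128 (332 CPM on average), and its defining miR-124a and miR-124b averaged 0.0308 CPM. The summed red blood cell level (2 of 2 markers tested) ran from 55.6 to 2795 CPM in normal and from 68.6 to 233 CPM in dark-cutting steers, with the highest value in normal steer 19. Without that steer the median correlation of member pairs was 0.341. With total count scaling, correlations of the member mean with single markers were larger for some. Of the muscle list, miR-1 was at -0.527, but miR-133a, miR-133b and miR-206 were at 0.447, 0.497 and 0.505. miR-208b and miR-486 were at 0.272 and 0.167. Both endothelial markers, miR-126-5p and miR-126-3p, were at 0.531 and 0.404, and the red blood cell miR-451 and miR-144 at 0.494 and 0.273. Of the smooth muscle list, miR-145 was at 0.467 and miR-143 at 0.122. On that scale members paired with the other 226 miRNAs had a median of 0.246, with 92% of pairs above 0. The part of other cell types in the levels was not tested further.

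The balance of hairpin arms could be set out for a single hairpin. Of 3 member hairpins with both arms in the table, miR-369 alone had a mean of at least 10 counts on each arm. Its 3p arm had 207.7 counts on average and its 5p arm 27.04, a ratio of 7.68, and the 5p arm was not above the 3p arm in any of the 78 steers. The log2 ratio of 5p to 3p counts ran from -4.33 to -1.44 in normal and from -3.86 to -2.18 in dark-cutting steers. Its mean was -2.90 ± 0.59 (SD, n = 53) and -3.02 ± 0.48 (SD, n = 25), a difference of -0.12 (two-sided permutation test, p = 0.397, 1 hairpin tested). Within the lower and upper title number ranges the difference was 0.05 (permutation p = 0.862) and -0.20 (permutation p = 0.181). For miR-380 and miR-411c the minor arm averaged 0.282 (5p) and 1.18 (3p) counts, against 52.8 (3p) and 27.7 (5p) for the major arm.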

How the data were processed

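Small RNA libraries were made with a NEXTflex kit, and Trimmomatic 0.32, FastQC and DESeq2 1.34.0 are listed in the submitters' processing notes. The aligner, counter, miRNA reference and build are, in the sources used here, not given. Genome positions and mature sequences are not used here. Per the file headers and values, the authors deposited a matrix of whole-number counts, 1 row per mature miRNA and 1 column per steer, not normalized. The authors also deposited a table with a mean normalized signal, a log2 fold change with its standard error, a Wald score and a p-value per miRNA. Its headers name no contrast. A DESeq2 refit of dark-cutting against normal steers gave its log2 fold changes within 2.14e-08.

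The test was that of edgeR 4.0.16 under R 4.3.3 (quasi-likelihood F test, robust, TMM scaling, Benjamini-Hochberg over all miRNAs tested, threshold 0.05). The filter was filterByExpr with a minimum count of 10. For degrees and slopes a miRNA needed 10 counts, scaled to the median library, in 8 or more libraries and a total of 15. DESeq2 1.42.0, limma 3.58.1 and other scalings, filters and subsets of steers were alternatives. Log2 CPM used a prior count of 2, and the arm ratio a pseudocount of 0.5 and 100000 resamples. The test was also run on simulated data with known changes, in which miRNAs varied independently of each other, unlike the members. Its outcome is not given here and no result rests on it. Each steer is 1 library, so p-values measure the spread between steers. Over 3003 pairs of libraries the chi-square statistic per degree of freedom was at least 9.52, so none was a near copy.

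The members follow from a name rule, but this group of miRNAs was picked for description, and the other lists were drawn up, with earlier results of these data known. Named in full are the 8 most abundant members, the member with the smallest p in each comparison, any under an unadjusted 0.05 in dark-cutting against normal steers, and the 5 most alike non-members. Grouping by shared seed was part of that rule and was not done here. miR-382, miR-381, miR-543 and miR-380-3p at degree 1/2, miR-379 and miR-411a between title number ranges, and the other members named for a level, a sign or a correlation were chosen after their values were seen.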

Additional observations from a re-analysis of the deposited data

Results flagged for a closer look

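Single steers stood apart from the rest of their degree in 5 of 63 combinations of a tested member with a degree of 4 to 9 steers, by the gap to the nearest steer relative to the whole range. Chance alone flags about 1 in 20 such groups. Steer 3 of degree 1/4 was the lowest of its 8 steers for miR-154c at 2.33 log2 CPM (the next steer was at 3.18), for miR-380-3p at 2.83 (next 4.04) and for miR-410 at 1.25 (next 2.46). It had 15, 22 and 6 counts of these. Steer 2 of degree 1/4 was the highest for miR-655 at 4.68 log2 CPM, with the next steer at 3.71. Steer 4 of degree 1/3 was the lowest of its 9 steers for miR-376e at 3.49 log2 CPM, with the next at 4.48.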

How the results depend on the processing

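No member was called after adjustment under any of the 49 alternatives run over the 7 comparisons of phenotype and degree. The medians of the members were less stable. The sign turned at degree 2/3 without steer 4, and within dark-cutting steers it was above 0 in 5 of 6 alternatives and below 0 in the reported fit. The median for dark-cutting against normal steers stayed between 0.12 and 0.27. With total count scaling the median of all 252 miRNAs moved from -0.01 to 0.10, and that of the members has to be read against it. Of 281 values of named members, 272 kept their sign, a count of sign alone since no member was called in any fit. The other 9 changed sign in dark-cutting against normal steers. miR-376e went to 0.0596 with total count scaling, 0.0021 without normal steer 19 and 0.0742 in the title number range below 600. In that range miR-369-5p was at 0.23 and miR-411a at 0.0042. In the range of 600 or above miR-369-3p went to -0.0590, miR-376d to -0.0583 and miR-381 to -0.0028, and with limma-voom miR-376d went to -0.0282. The arm difference of miR-369 was 0.0471 in the range below 600, and the median correlation of member pairs 0.513 with total count scaling; the cause was not tested for any of these. Leaving out single steers moved the median of the members between 0.20 and 0.38 at degree 1/2 and between -0.31 and 0.19 at degree 2/3. Without a low-count filter 2 of all miRNAs passed for dark-cutting against normal steers and no member. No paired analysis was possible because the replicate numbers only name the steers of a group, in accession order, and link no steer to one of another group. Depth limits the rarer members, such as miR-543 and miR-299 with 13.3 and 7.09 counts per library on average. With 3 and 4 steers the 95% intervals left out a 2-fold change for 13 and 19 of 23 members at degrees 1/2 and 2/3. Over all 272 miRNAs tested there, they did so for 202 and 219.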
